A study of Mus musculus with 6 samples.

Results

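Cxcl9, Cxcl10 and Cxcl11 encode small secreted chemokines that share the receptor CXCR3. These 3 genes are measured by 4 of the 22690 probe sets on the Mouse Genome 430A 2.0 array: 1418652_at for Cxcl9, 1418930_at for Cxcl10, and 1419697_at and 1419698_at for Cxcl11. They were taken as every probe set that the platform annotation gives to 1 of these symbols and to no other gene. RNA came from bone marrow-derived macrophages of IκBβ-knockout (KO) and wild-type (WT) mice, labelled as strain C57BL/6J and grown for 7 days in 30% L929-conditioned medium. Cells of each genotype were unstimulated (0 h) or held for 1 h or 5 h in 1 µg/ml lipopolysaccharide (LPS), a bacterial cell wall component, and each genotype and time has 1 array. The labels state neither how the allele was made, nor how many mice were used, nor whether arrays of a genotype share a mouse.

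CXCR3 is a G protein-coupled receptor of activated T cells and natural killer cells, which follow gradients of its ligands into inflamed tissue. Macrophages are a main source of the ligands. LPS acts through Toll-like receptor 4 on NF-κB and, through interferon regulatory factors, on the interferon beta gene, whose product acts back on the same cells. Cxcl10 is known as a target of both NF-κB and type I interferon, and Cxcl9 as the ligand most tied to interferon gamma. IκBβ, encoded by Nfkbib, binds NF-κB dimers. In the RefSeq annotation of the C57BL/6J genome (GRCm38.p6), Cxcl9 and Cxcl10 are protein-coding genes and Cxcl11 is a transcribed pseudogene, so the Cxcl11 values below are for a transcript and say nothing about a protein.

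The promoters of Cxcl9 and Cxcl10 are shown because both genes are strongly induced here and at different times. Each covers 250 bases before and 50 bases after the RefSeq start and is written 5′ to 3′ on the minus strand of GRCm38.p6, with motif matches in capitals. Cxcl9 lies at chr5:92328030-92328329 and Cxcl10 at chr5:92348840-92349139.
Cxcl9: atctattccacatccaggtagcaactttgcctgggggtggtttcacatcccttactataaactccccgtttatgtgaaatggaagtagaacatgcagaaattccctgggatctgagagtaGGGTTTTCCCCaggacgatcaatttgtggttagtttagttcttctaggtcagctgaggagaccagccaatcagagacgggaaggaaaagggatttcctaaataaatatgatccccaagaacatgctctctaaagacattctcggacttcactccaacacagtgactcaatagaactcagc
Cxcl10: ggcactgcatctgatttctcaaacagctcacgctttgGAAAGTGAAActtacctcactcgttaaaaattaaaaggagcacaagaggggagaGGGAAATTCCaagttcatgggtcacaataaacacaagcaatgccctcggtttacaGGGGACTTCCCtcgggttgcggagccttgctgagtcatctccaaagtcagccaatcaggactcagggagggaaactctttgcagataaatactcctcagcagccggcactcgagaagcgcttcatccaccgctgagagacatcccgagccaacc

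Both strands were searched for the NF-κB consensus (the κB motif), for a looser form of it (GGG and CC with any 5 bases between), for the core of the interferon-stimulated response element (GAAA and GAAA with any 2 bases between), and for the interferon gamma-activated site TTCNNNGAA. The Cxcl10 window held GAAAGTGAAA from 213 to 204 bases before the start. It also held 2 matches to the κB motif, GGGAAATTCC from 159 to 150 and GGGACTTCCC from 103 to 94 bases before the start. Each of these also matches the looser motif, and the second lies in a run that matches it at 1 further position. The Cxcl9 window held only the looser motif, in the run GGGTTTTCCCC that spans 130 to 120 bases before the start. Among 32851 RefSeq promoter windows of 300 bases, 3.44% held the interferon-stimulated core, 4.51% the κB motif, 8.3% TTCNNNGAA and 50.8% the looser κB form. A match describes letters in this window and is no measure of binding.

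The values are MAS5 signals on a linear scale. Nfkbib read 30.5, 136 and 56.1 at 0 h, 1 h and 5 h on KO arrays, against 477, 3330 and 5007 on WT arrays. The sample titles shorten the knockout to IkB, and it was read as IκBβ from the series text and these signals. The signals are thus no independent check of the knockout. Whether the Nfkbib probes fall inside the deletion is not stated in the labels. Xist, transcribed from the inactive X chromosome, read 2149 to 5634 on KO arrays, against 52.1 to 80.4 on WT arrays, and the Y-linked Eif2s3y read 0.896 to 10.7 on KO arrays, against 570 to 860 on WT arrays. The KO arrays thus show the pattern of female cells and the WT arrays that of male cells, and a difference between the genotypes cannot be told apart from one between the sexes. Macrophage markers were bright throughout: the summed signal of 8 of 8 markers was 77175 to 85959 on KO arrays, against 83596 to 91380 on WT arrays. Of 9 T and NK cell markers with a probe set, 0 exceeded the array median on any array, and Ifng, the interferon gamma gene, was under the 25th percentile of all values (18.3) on 5 of 6 arrays, with 22.1 on the WT array at 5 h.

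The 3 chemokine genes rose on different schedules. Cxcl10 was already above the array medians before LPS and had made most of its log2 rise by 1 h, Cxcl11 was intermediate, and Cxcl9 was dim until 1 h and bright at 5 h. The order was the same in both genotypes.

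**Figure D1:**
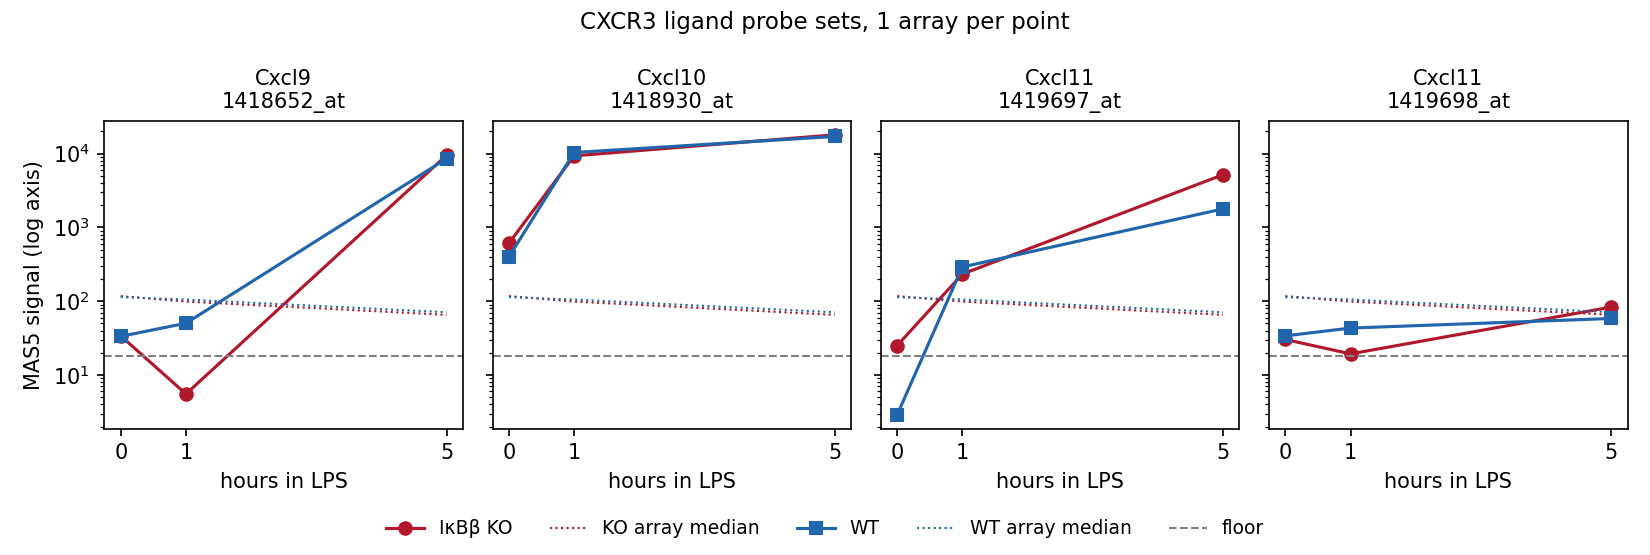
MAS5 signal (log axis) of the 4 chemokine probe sets against hours in LPS, with 1 array per point, KO as red circles and WT as blue squares. Dotted lines are array medians and the dashed line is the floor of 18.3. Cxcl10 stands at 9307 on the KO array and 10330 on the WT array at 1 h, Cxcl9 climbs only between 1 h and 5 h, and Cxcl11 probe set 1419697_at separates the genotypes at 5 h, at 5167 on the KO array and 1780 on the WT array.

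Cxcl10, which encodes IP-10, gave signals of 612, 9307 and 17946 at 0 h, 1 h and 5 h on KO arrays, against 400, 10330 and 17043 on WT arrays. Every signal was above its array's median, and the 4 LPS arrays read 9307 or more, against 612 or less on the 2 unstimulated ones. At 1 h the signal had reached 51.9% of its 5 h value on KO arrays, against 60.6% on WT arrays. At 5 h only 19 probe sets were brighter on the KO array, against 74 on the WT array. The highest signals of any probe set were 20645 to 25581 over the 6 arrays, and whether the Cxcl10 spots were near saturation was not tested.

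Cxcl11, which encodes I-TAC in strains that make it, gave 25.1, 233 and 5167 with probe set 1419697_at on KO arrays, against 2.89, 290 and 1780 on WT arrays. Both unstimulated signals were dim, with the WT one under the floor, and both genotypes showed an intermediate level at 1 h. The 1 h signal was 4.50% of the 5 h signal on KO arrays, against 16.3% on WT arrays. The second probe set, 1419698_at, was dim, with 30.3, 19.3 and 83.2 on KO arrays, against 33.9, 43.2 and 58.3 on WT arrays. Its signals at 0 h and 1 h lay well under the array medians and only the KO 5 h signal exceeded one, so the 2 probe sets of this gene disagree on the size of the rise.

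Cxcl9, which encodes MIG, gave 33.8, 5.53 and 9498 on KO arrays, against 33.4, 50.2 and 8541 on WT arrays. The 4 arrays of 0 h and 1 h were all under their medians, and at 5 h only 358 probe sets were brighter on the KO array, against 424 on the WT array. The 1 h signal was 0.0583% of the 5 h signal on KO arrays, against 0.588% on WT arrays.

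The LPS change shared by both genotypes was tested with limma over 7507 genes, with genotype and time as additive terms, which leaves 2 residual degrees of freedom. With 1 array for each genotype and time, this residual is how far KO and WT differ in their LPS changes, and no spread between replicates. A genotype difference at a single time thus widens the SE of that gene. Any signal below the floor of 18.3 was set to that value ahead of the log2 step, so values that involve the WT 0 h signal of Cxcl11 or the KO 1 h signal of Cxcl9 depend on the floor, and their ranks too. The 3 genes passed the filter of exceeding an array's median on at least 1 array. Cxcl9 and Cxcl11 passed it through their LPS arrays alone, so a difference from 0 h was built in for them. The same holds for genes of the lists below whose 0 h signals were under both array medians, among them Ifnb1, Rel, Socs1, Mx2, Nos2 and Cxcl5. Their rises and the list counts that include them carry this limit.

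At 1 h Cxcl10 rose by 4.31 on the log2 scale (SE 0.22, limma adjusted p = 0.00297) and Cxcl11 by 3.60 with its WT 0 h signal at the floor (SE 0.47, limma adjusted p = 0.0224). Cxcl9 stood at −0.15 (SE 0.45, limma adjusted p = 0.834) and did not pass. Thus 2 of the 3 genes were called higher, where 5.45% of all genes tested were. With this floor 35 of the 7507 genes rose more than Cxcl10 at 1 h, and 52 more than Cxcl11. With every gene tested and no filter on dim probe sets, the Cxcl11 rise missed the threshold (limma adjusted p = 0.111), and it also did so as the mean of its 2 probe sets (1.73, limma adjusted p = 0.0715).

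At 5 h all 3 were called higher, against 19.5% of all genes. Cxcl9 rose by 8.07 (SE 0.45, limma adjusted p = 0.000464), Cxcl11 by 7.15 at this floor (SE 0.47, limma adjusted p = 0.000602) and Cxcl10 by 5.14 (SE 0.22, limma adjusted p = 0.000353). At the same floor the rises of 9, 14 and 54 genes were larger than those of Cxcl9, Cxcl11 and Cxcl10. The median change of all genes at 5 h was −0.57, and centring each array on its median moved it to 0.20, with 2936 genes higher and 2051 lower in place of 1463 and 4054. Quantile normalization gave 1977 and 3052. With median centring the 3 genes rose by 8.83, 7.91 and 5.91 for Cxcl9, Cxcl11 and Cxcl10. As the mean of both its probe sets Cxcl11 rose by 4.13, and probe set 1419698_at fitted on its own gave 1.12 (SE 0.42, limma adjusted p = 0.0711).

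The step from 1 h to 5 h set the genes apart most. Cxcl9 rose by 8.22 between these times (SE 0.45, limma adjusted p = 0.000751), with its KO 1 h signal at the floor, and by 9.08 with the floor at the 10th percentile. Nos2, the inducible nitric oxide synthase gene, whose 4 signals at 0 h and 1 h were all under the floor, gave 8.15. Cxcl11 rose by 3.54 (SE 0.47, limma adjusted p = 0.00445) and Cxcl10 by 0.83 (SE 0.22, limma adjusted p = 0.0292). All 3 were called, where 18.5% of genes were called higher. The Cxcl10 step was the least secure: without the KO 1 h, KO 5 h or WT 5 h array its limma adjusted p was 0.154, 0.0991 and 0.136, and with no filter on dim probe sets it was 0.118.

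**Figure D2:**
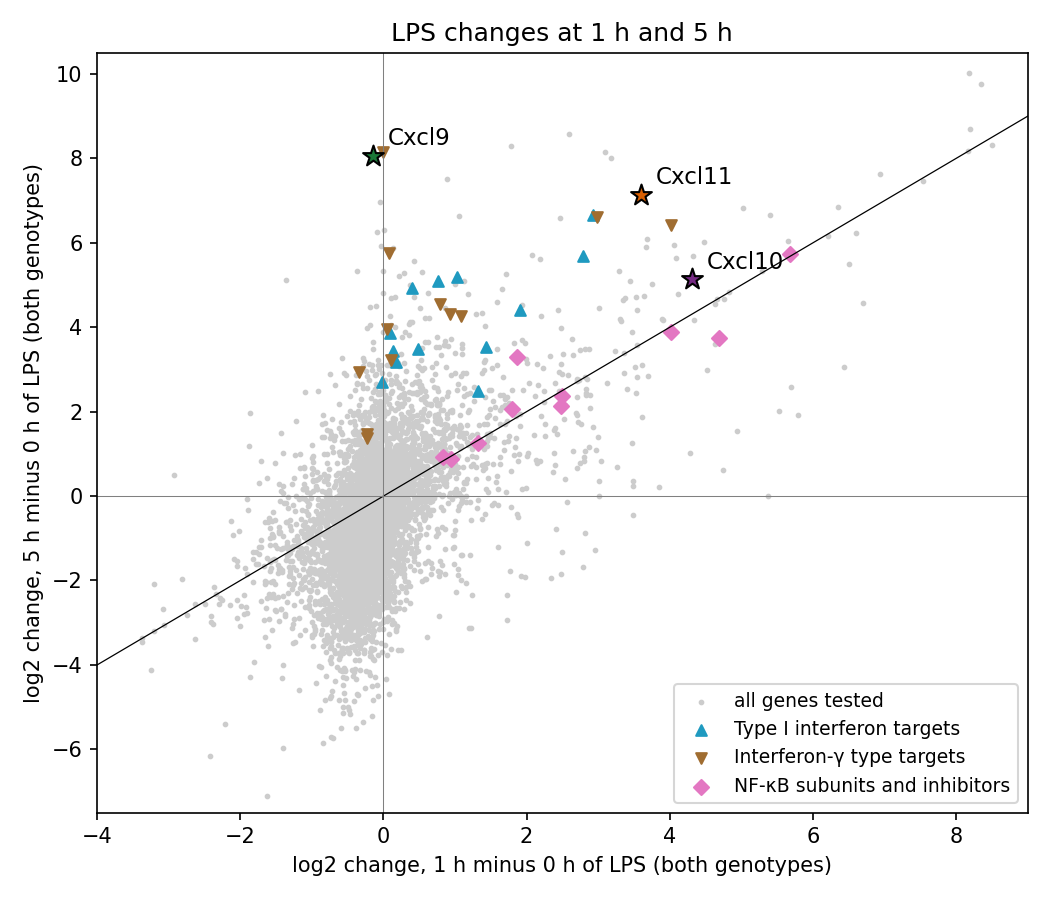
Each point is a gene, with its log2 LPS change shared by both genotypes at 1 h (x axis) and 5 h (y axis), on the diagonal where the changes are equal. Stars mark the 3 chemokine genes and coloured symbols the named lists. Cxcl10 (4.31 and 5.14) lies close to the diagonal, Cxcl11 (3.60 and 7.15) above it, and Cxcl9 (−0.15 and 8.07) beside the zero line of the 1 h axis.

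Within each genotype the 3 genes rose in the same order. Cxcl10 had changed by 3.93 at 1 h and 4.87 at 5 h on KO arrays, against 4.69 and 5.41 on WT arrays. Cxcl11 had changed by 3.21 and 7.69 on KO arrays, against 3.99 and 6.60 on WT arrays with the 0 h signal at the floor. The Cxcl11 step from 1 h to 5 h, with no signal at the floor, was 4.47 in KO, against 2.62 in WT. Over the other settings that step ran from 3.29 to 5.07 in KO, against 1.52 to 3.19 in WT. The dim probe set 1419698_at gave 2.11 and 0.43. Cxcl9 had changed by −0.89 at 1 h on the KO array, against 0.59 on the WT array, and its step from 1 h to 5 h was 9.02 in KO with the 1 h signal at the floor, against 7.41 in WT. The log2 change at 1 h was 80.6% of that at 5 h for Cxcl10 on KO arrays, against 86.7% on WT arrays, and 41.8% for Cxcl11 on KO arrays, against 60.4% on WT arrays. These values rest on 2 arrays each and come without a test.

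Among the differences between genotypes in which both signals were above the floor, that of Cxcl11 at 5 h was the largest. KO minus WT was 1.54 on the log2 scale, a 2.90-fold higher signal in KO cells. At that time 1.8% of all genes were at least 2-fold higher in KO, and 42 genes of 7507 differed by more in this direction. The dim probe set 1419698_at gave 0.51, and the mean of both probe sets 1.03. Cxcl9 (0.15) and Cxcl10 (0.07) were nearly level between the genotypes at 5 h, where the middle 95% of all genes ran from −1.08 to 0.86. The neutrophil marker S100a8 also stood higher in KO at 5 h, at 1135 against 500 in WT, while Camp, the other neutrophil marker above the filter, read 88.6 in KO and 92.9 in WT. The summed signal of the 5 neutrophil markers with a probe set ran from 176 to 1295 on KO arrays, against 219 to 674 on WT arrays, and S100a8 made up most of the 5 h sums. The part of such cells in the Cxcl11 difference was not tested.

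Before LPS, Cxcl10 was 1.53-fold higher in KO cells (0.61 on the log2 scale), where 3.08% of all genes were at least 1.5-fold higher. Cxcl11 differed by 0.45 with its WT signal at the floor, and by 2.36 with the floor at the 10th percentile, and Cxcl9 differed by 0.02. At 1 h the differences of Cxcl10 (−0.15) and Cxcl11 (−0.32) pointed the other way. The Cxcl9 difference of −1.46 at 1 h, where 1.88% of all genes were at least 2-fold lower in KO, compares signals of 5.53 and 50.2 that were both under their array medians, and it ran from −3.18 to −0.10 over the other settings.

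With its higher 0 h signal in KO, the log2 LPS change of Cxcl10 in KO minus that in WT was −0.76 at 1 h and −0.54 at 5 h. For Cxcl11 the change at 5 h was larger in KO by 1.08 with the WT 0 h signal at the floor, where 2.72% of genes were larger by 2-fold or more. That value turned to −0.82 with the floor at the 10th percentile. The direction of the difference in the change from 0 h was thus not settled by these arrays. Averaged over the 3 times, KO minus WT was −0.43 (SE 0.37, limma adjusted p = 0.721) for Cxcl9, 0.18 (SE 0.18, limma adjusted p = 0.749) for Cxcl10 and 0.56 (SE 0.38, limma adjusted p = 0.67) for Cxcl11. Of these, 0 passed limma's test, with 0 at an unadjusted p under 0.05 (0.304, 0.365 and 0.215 in the same order). The test called 0.0133% of genes (1 gene), while 629 genes had an unadjusted p under 0.05. The deleted Nfkbib, at −5.02, was itself not called (limma adjusted p = 0.308), so a gene that did not pass may still differ.

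**Figure D3:**
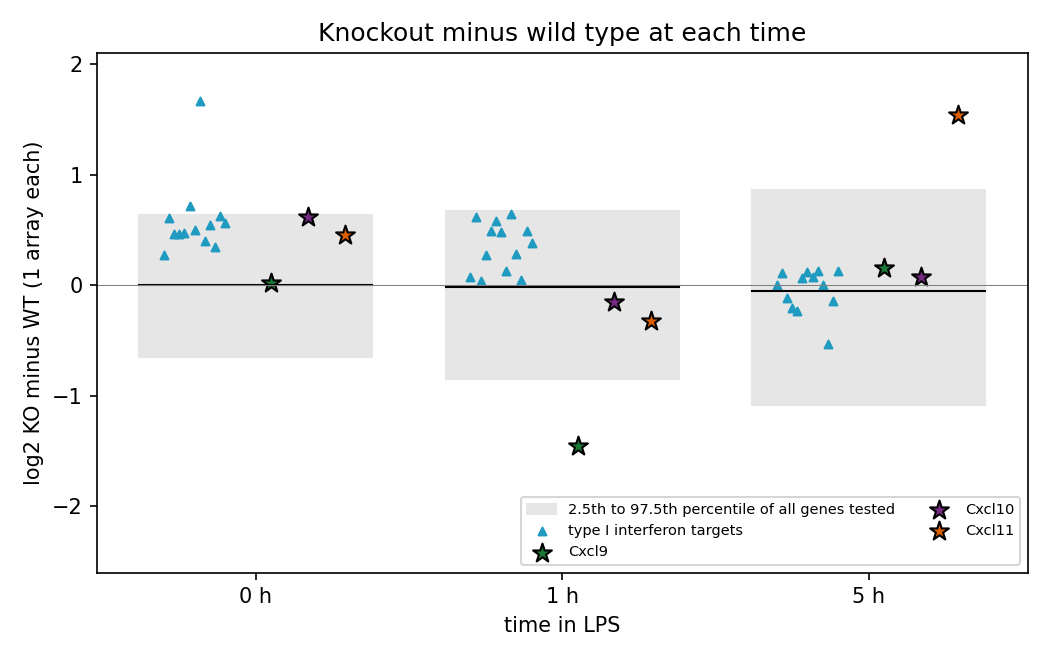
Log2 KO minus WT from 1 array each at 0 h, 1 h and 5 h, with grey boxes for the middle 95% of all genes tested, a black line at their median, stars for the 3 chemokine genes and triangles for type I interferon targets. Cxcl11 at 5 h (1.54) lies above the box, Cxcl9 at 1 h (−1.46) lies below it, and the triangles are all above 0 at 0 h and 1 h and spread around 0 at 5 h.

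Interferon signalling genes gave the wider setting of these rises. Ifnb1, the interferon beta gene, read 50.3, 1955 and 81.4 at 0 h, 1 h and 5 h on KO arrays, against 88.2, 1629 and 127 on WT arrays. It rose by 4.74 at 1 h (limma adjusted p = 0.00481) and stood at 0.61 at 5 h (limma adjusted p = 0.132). With no filter on dim probe sets the 1 h rise missed the threshold (limma adjusted p = 0.0594). At 5 h it passed with median centring (1.37, limma adjusted p = 0.0102), with quantile normalization (1.31) and without either 1 h array. Its highest signals were at the time when Cxcl10 was already high and Cxcl9 still dim. Of 16 tested genes of this list, 3 were called higher and 2 lower at 1 h, where 5.45% and 5.94% of all genes were. At 5 h 10 were higher and 2 lower, where 19.5% and 54% of all genes were. The kinase gene Jak2 rose by 1.83 at 1 h and 3.63 at 5 h, and the transcription factor genes Irf7 and Stat2 rose by 3.01 and 2.90 at 5 h. Irf8 fell by 1.00 at 1 h and rose by 1.20 at 5 h. Ifngr1, a chain of the interferon gamma receptor, fell by 2.37 at 5 h (−1.61 with median centring). Without a 1 h array the Jak2 rise at 1 h missed the threshold (limma adjusted p up to 0.0633), and the Irf8 fall did so without any 1 array of 0 h or 1 h (up to 0.151). Irf1, an activator of interferon-responsive promoters, read 2529 on the KO array at 1 h, against 5219 on the WT array (−1.05). This untested value was the lowest of the list, whose median was 0.13 with 12 genes higher and 4 lower in KO. Of all genes, 1.88% were at least 2-fold lower in KO at 1 h. The Irf1 rise shared by both genotypes at 1 h was not called (1.53, limma adjusted p = 0.0597).

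Type I interferon targets mostly followed the late schedule. Of 13 tested, 7 were called higher at 1 h and 13 at 5 h, with medians of 0.76 and 3.86, against −0.18 and −0.57 for all genes. Among all genes 5.45% were called higher at 1 h and 19.5% at 5 h. Mx2 and Oasl1, both antiviral genes, were among the largest at 5 h (6.65 with the WT 0 h signal of Mx2 at the floor, and 5.68), and they rose by 2.93 and by 2.79 at 1 h. Ifit1 rose by 1.91 at 1 h and 4.41 at 5 h. With no filter on dim probe sets, 1 of the 13 was called higher at 1 h, with Mx2 (limma adjusted p = 0.13) and Ifit1 (limma adjusted p = 0.0794) not called. Both also missed it with single arrays left out (up to 0.176 and 0.112). All 13 were higher in KO at 0 h, with a median of 0.50, against 0.0022 for all genes. Their range was 0.27 to 1.67, where the upper end was Mx2 with its WT signal at the floor and the next value was 0.71 (Ifit3). The Cxcl10 difference of 0.61 lay inside that range, also without Mx2. These differences all rest on the same 2 arrays and come without a test. At 5 h the list's median difference was 0.00, against −0.056 for all genes, with 7 of the list higher and 6 lower in KO.

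Targets typical of interferon gamma rose mainly after 1 h. Of 12 tested, 3 were called higher at 1 h (0 of 13 with no filter on dim probe sets, 5 at an unadjusted p under 0.05) and 12 at 5 h, with medians of 0.09 and 4.30. Among all genes 5.45% and 19.5% were called higher at these times, with medians of −0.18 and −0.57. Nos2 rose by 8.15 at 5 h, and by 6.80 to 9.95 under the other settings, as all 4 of its earlier signals were below the floor. Iigp1, an interferon-inducible GTPase gene, rose by 5.75 at 5 h and Gbp2, of another such family, by 4.27. Cd40 was earlier, with 4.02 at 1 h and 6.42 at 5 h. Socs1, with its WT 0 h signal at the floor, gave 2.99 and 6.62, and 1.80 at 1 h with the floor at the 40th percentile. With no filter both missed the threshold at 1 h (limma adjusted p = 0.055 and 0.0705). The smallest rise at 5 h was that of the immunoproteasome subunit gene Psmb9 (1.36, and 2.13 with median centring).

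NF-κB subunit and inhibitor genes, a list that holds the deleted Nfkbib, rose early. Of 10 tested, 9 were called higher at 1 h and 10 at 5 h, with medians of 2.17 and 2.25, and with no filter on dim probe sets 5 were called at 1 h. With the filter, 5.45% of all genes were called higher at 1 h and 19.5% at 5 h. Tnfaip3, which encodes the feedback inhibitor A20, rose by 5.69 at 1 h and 5.74 at 5 h, and the subunit gene Rel by 4.69 and 3.76. From 1 h to 5 h, 1 was called higher (Nfkb2, 1.44, limma adjusted p = 0.00353), 1 lower (Rel, −0.93, limma adjusted p = 0.0116) and 8 neither, with a median of −0.07. Of all 7507 genes, 1392 were called higher and 3418 lower over this step, with a median of −0.38. Nfkbia, the IκBα gene, rose by 0.83 at 1 h with the probe set used here, and averaging all of its probe sets gave 1.66. The first value missed the threshold with lower floors, with no filter or without any 1 array of 0 h or 1 h (limma adjusted p up to 0.236).

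Among the other CXC chemokine genes, Cxcl1, Cxcl2 and Cxcl5, whose products attract mainly neutrophils, were early. Of 6 tested genes of this list, 3 were called higher and 0 lower at 1 h, and 4 higher and 2 lower at 5 h. The shares of all genes were 5.45% higher and 5.94% lower at 1 h, and 19.5% and 54% at 5 h. Cxcl1 rose by 6.70 at 1 h and 4.58 at 5 h, Cxcl2 by 4.33 and 4.18, and Cxcl5 by 2.84 and 2.77, although its 1 h rise missed the threshold with no filter on dim probe sets (limma adjusted p = 0.0818) and without the KO 0 h array (0.0547). Cxcl16, which binds CXCR6, rose by 0.85 at 5 h, and by 1.62 with median centring. Ppbp (−1.06) and Pf4 (−0.52) fell at 5 h, but with median centring Ppbp stood at −0.29 (limma adjusted p = 0.14) and Pf4 at 0.24 (0.265). Pf4 also missed the threshold with no filter and without any 1 array other than the KO 5 h array (up to 0.178). The receptor gene Cxcr3 itself was measured above the array median, at 465, 321 and 87.9 on KO arrays, against 391, 265 and 103 on WT arrays. It fell by 2.17 at 5 h (limma adjusted p = 0.000883; −1.40 with median centring), so ligand transcripts rose while that of their receptor fell in these cultures. The B cell marker Ighm fell over the same times, at 3571, 2563 and 304 on KO arrays, against 3371, 2308 and 268 on WT arrays, and the part of such cells in the Cxcr3 values was not tested. Fewer cells of a type and less RNA per cell cannot be told apart in bulk RNA.

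For each chemokine gene, the genes of most similar profile were found by the root mean square distance between their 4 log2 LPS changes (1 h and 5 h, KO and WT). For Cxcl9 these were Nos2 (distance 0.54, Pearson r = 0.994 over the 6 arrays), Slfn4 (0.94), Lipg (1.09), Cfb (1.26) and Il15ra (1.39). For Cxcl10 they were Hspa1b (0.29, r = 0.996), Vcam1 (0.42), Traf1 (0.49), Dusp1 (0.52) and Ccrl2 (0.52). Hspa1b has a near-identical copy, Hspa1a, so its signal may hold both. For Cxcl11 they were Cd40 (0.69, r = 0.974), Ptges (0.81), Socs1 (0.88), Mmp13 (0.89) and Edn1 (0.91). None of the 3 chemokine genes was among the 5 closest to another. The distance was 1.61 between Cxcl10 and Cxcl11 (r = 0.924), 2.76 between Cxcl9 and Cxcl11 (0.845) and 3.79 between Cxcl9 and Cxcl10 (0.609). By closeness among the 7507 genes, Cxcl10 ranked 21 and Cxcl9 ranked 91 for Cxcl11. In turn Cxcl11 ranked 50 for Cxcl10 and 47 for Cxcl9. For Cxcl9, Cxcl10 ranked 171, and for Cxcl10, Cxcl9 ranked 600. The 6 arrays share their scaling, and these likenesses are descriptions at the floor of 18.3. Of the named genes, 4 Nos2 signals, 2 each of Lipg, Vcam1, Ptges and Edn1, and 1 each of Slfn4, Il15ra and Socs1 were under it, so those distances depend on the floor. Vcam1, for example, read 5.08 at 0 h on the KO array and 3.39 on the WT array.

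The 3 genes lie close together on chromosome 5, in the RefSeq order Cxcl9, Art3, Cxcl10, Cxcl11, and the annotated span of Art3 covers Cxcl10 and Cxcl11. Of the 11 other genes in the window from 5 genes before Cxcl9 to 5 after Cxcl11, 6 have a probe set and 4 passed the filter. At 1 h limma called 0 of these 4, and Scarb2 (−0.47, unadjusted p = 0.0137, adjusted p = 0.0772) was the 1 gene with an unadjusted p under 0.05. Among all genes tested, 5.45% were called higher and 5.94% lower at 1 h, and 19.5% and 54% at 5 h. At 5 h Naaa, which encodes a lysosomal amidase, rose by 0.58 (SE 0.10, limma adjusted p = 0.00779), Sdad1 by 0.81 (SE 0.18, limma adjusted p = 0.0163) and the nuclear pore gene Nup54 by 0.81 (SE 0.16, limma adjusted p = 0.0104). With median centring these rises were 1.34, 1.57 and 1.58. Each call was lost with 1 array left out: that of Naaa without either 0 h array (limma adjusted p up to 0.0774), that of Nup54 without the WT 0 h array (0.0691), and that of Sdad1 without the KO 0 h, KO 5 h or WT 5 h array (up to 0.0918) or with no filter (0.0719). Scarb2, which encodes a lysosomal membrane protein, fell by 1.52 (SE 0.11, limma adjusted p = 0.000805), and stood at −0.76 with median centring, where it was still called. The smallest rise among the chemokine genes at 5 h was thus 5.14, and the largest among their tested neighbours 0.81, or 5.91 and 1.58 with median centring. As the mean of its probe sets Cxcl11 rose by 4.13.

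**Figure D4:**
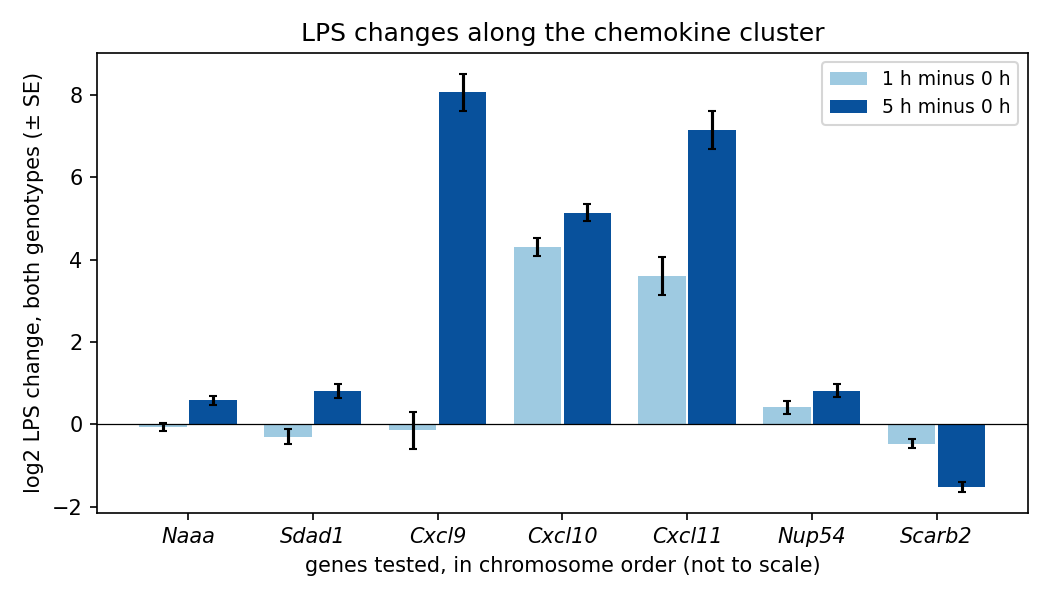
Bars give the log2 LPS change shared by both genotypes (± SE from limma) at 1 h and 5 h for the 3 chemokine genes and their 4 tested neighbours, in chromosome order. The chemokine genes reach 5.14 to 8.07 at 5 h, and the neighbours lie between −1.52 and 0.81.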

How the data were processed

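RNA of 6 samples was hybridised to 6 arrays. The deposited values are intensity, namely MAS5 signals per the submitters' processing notes, with no version or scaling target given. Trimmed means of the arrays (2% off each end, controls left out) were close to 497 and medians were 65.2 to 117. No further scaling was applied, and 64 control probe sets were left out. Of the other probe sets 20380 have 1 gene symbol, 691 several and 1555 none, and 20351 matched RefSeq by gene ID. Log2 was taken after setting a floor at the 25th percentile (18.3). Genes above an array's median on at least 1 array were kept, each by its brightest probe set, and fitted with limma 3.58.1 in R 4.3.3 (Benjamini-Hochberg adjusted p under 0.05, prior of 2.18 degrees of freedom). In simulated data with 7507 genes, 100 were changed 2-fold and 100 were changed 4-fold. The fit recovered 86% and 99% of these at 1 h, and 75% and 99% at 5 h, with 14 and 13 false calls. The 2 times have the same design, so the gap between 86% and 75% measures no difference between them. Far more genes were called at 5 h on the real arrays (5517), so these shares do not carry over to them. Single-array differences have no test, and the spread used does not cover that between mice. Named genes were the chemokine genes, their 5 nearest profiles, their neighbours, Ifnb1, check genes and the extreme members of each list. Of the lists, markers of 6 cell types (macrophage, T and NK cell, B cell, neutrophil, dendritic cell, fibroblast) were checked too. Members, lists and motifs were chosen with earlier results of these data known, and S100a8, Ighm and Ccr7 were singled out after their values were seen. Alternatives were the floor, scaling, filter, use of probe sets and each array left out.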

Additional observations from a re-analysis of the deposited data

Results flagged for a closer look

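Cxcl9 changed in opposite directions between 0 h and 1 h on the KO and WT arrays, at −0.89 in KO and 0.59 in WT, a difference of −1.47 on the log2 scale. With 1 array for each genotype and time the difference was not tested. All 4 signals, 33.8 and 5.53 on KO arrays and 33.4 and 50.2 on WT arrays, were under their array medians, and the difference was −0.10 with the floor at the 40th percentile.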

How the results depend on the processing

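No paired analysis was possible because each genotype and time has 1 array and no replicate number, beyond the genotype term that the time contrasts already have. The 5 h rises of the 3 genes, with Cxcl11 read by 1419697_at or by the mean of its probe sets, passed the test in every setting that gave a value (7.59 to 8.83 for Cxcl9, which the filter on 3 arrays leaves out, 4.82 to 5.91 for Cxcl10 and 4.13 to 8.23 for Cxcl11, left-out arrays included). On its own 1419698_at did not pass (1.12). Cxcl11 at 5 h was higher in KO by 1.03 to 1.66. Values at or near the floor moved most. With the floor at the 10th percentile and with log2(signal + 1) and no floor, Cxcl9 at 1 h gave KO minus WT of −3.18 and −2.97, with KO change minus WT change of −3.20 and −2.99. Under the same 2 settings Cxcl11 gave KO minus WT of 2.36 and 2.74 at 0 h, and KO change minus WT change of −2.68 and −3.06 at 1 h and of −0.82 and −1.21 at 5 h, which turned its direction. With the floor at the 40th percentile, Cxcl9 gave −0.10 for both 1 h differences, 0.051 for the 1 h change and 0.017 for KO minus WT over the 3 times, the last 2 reversed in sign. Median centring gave 0.030 for the Cxcl9 change at 1 h and 0.24 for Pf4 at 5 h, both reversed in sign, with 2936 genes higher at 5 h and 2746 from 1 h to 5 h. With no filter on dim probe sets the Cxcl10 step from 1 h to 5 h (0.83) and the Cxcl11 rise at 1 h (3.60) missed the threshold, and 148 genes were higher at 1 h. The Cxcl11 rise at 1 h also missed it as the mean of its probe sets (1.73). Fitting every probe set gave 645 features higher at 1 h, 2513 at 5 h and 2296 from 1 h to 5 h. Genes that differed between KO and WT over the 3 times numbered 0 with the floor at the 10th percentile, with no floor and with no filter, 3 with the mean of probe sets, and 4 with the floor at the 40th percentile, with median centring and with genes above the median on at least 3 arrays.

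Leaving out each array in turn leaves 1 residual degree of freedom, and the lone array of a time is assumed to vary like the others. The Cxcl9 change at 1 h then ran from −0.92 to 0.62, the Cxcl9 difference over the 3 times from −0.72 to 0.086 and that of Cxcl10 from −0.038 to 0.34. The Cxcl10 step from 1 h to 5 h ran from 0.59 to 1.08. The Cxcl11 rise at 1 h ran from 2.94 to 4.26 and missed the threshold without the KO 0 h, KO 1 h, WT 0 h or WT 1 h array (adjusted p up to 0.1). Genes higher numbered 99 to 370 at 1 h and 876 to 1238 from 1 h to 5 h, and 0 to 2 differed between KO and WT. The number of arrays limits the precision of every value, and signals under the array medians, as for Cxcl9 before 5 h, are the least certain.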

Other observations

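Ccr7, a chemokine receptor gene listed as a dendritic cell marker and singled out after its values were seen, read 92.9, 78.4 and 236 at 0 h, 1 h and 5 h on KO arrays, against 15.2, 31.2 and 141 on WT arrays. KO minus WT over the 3 times was 1.47 (SE 0.33, limma adjusted p = 0.547), which did not pass the test. Itgax, the other dendritic cell marker above the filter, went the other way. It read 430, 405 and 260 on KO arrays, against 560, 516 and 467 on WT arrays (−0.52, SE 0.14, limma adjusted p = 0.547). Dendritic cell markers gave a summed signal of 543 to 635 on KO arrays, against 646 to 678 on WT arrays, for 5 of 5 genes with a probe set. B cell markers summed to 363 to 3692 on KO arrays, against 358 to 3516 on WT arrays, for 4 of 5 genes. Fibroblast markers summed to 95.9 to 202 on KO arrays, against 150 to 214 on WT arrays, for 5 of 5 genes.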
